A study of Nicotiana tabacum with 12 samples.

Results

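A set of 44 of the 35519 NiTAB identifiers listed for tobacco was higher by at least 4-fold in the leaves of each of 3 *DcLCYB1* lines than in wild type leaves. These 44 members were chosen by their measured levels in CPM, which is the count of an identifier scaled to the sum of counts over all NiTAB identifiers of its library. The conditions were a wild type mean of at least 0.5 CPM, a mean of at least 5 CPM in each line, a ratio of each line mean to the wild type mean of at least 4, and no overlap, so that the lowest of the 9 line libraries was above the highest of the 3 wild type libraries. The levels of lines against wild type are therefore given as a description and not as a finding. The ratios are those of CPM without further scaling. With TMM-scaled CPM (library sizes adjusted by edgeR), 39 identifiers met the rule, all of them members.

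The study asked how expression of a carrot lycopene β-cyclase gene, *DcLCYB1*, changes the RNA of tobacco leaves. RNA from leaves of 5-week-old *Nicotiana tabacum* cultivar Xanthi NN was sequenced from the wild type and from the transgenic lines L14, L15, and L16, each of which carried *DcLCYB1*. Each genotype was sampled in 3 biological replicates, which made 12 libraries. Wild type and transgenic seeds alike are described as germinated on medium that contained sucrose and kanamycin, and the generation of the transgenic plants is given as T3 for the RNA and as T4 for the lines. The promoter of the transgene and the number of separate transformation events behind the lines are not given in the sources used here, and the transgene was not analysed here.

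Lycopene β-cyclase closes the rings at the ends of linear lycopene in the plastid and so makes β-carotene. In leaves, β-carotene and the xanthophylls made from it gather light and quench excess energy in photosynthesis, and they are also the starting material for the hormones abscisic acid and strigolactone. Tobacco is an allotetraploid that joins the genomes of *Nicotiana sylvestris* and *Nicotiana tomentosiformis*, so most of its genes exist as pairs of similar copies. The members are known here only by NiTAB identifier, since none of the 35519 identifiers matched an entry of the RefSeq gene table for tobacco. The study's supplementary tables that were read here list Arabidopsis identifiers without the NiTAB identifiers they stand for. Gene names, functions, and sequences of the members were thus not analysed here, and marker genes of leaf cell types could not be checked. In an identifier such as Nitab4.5_0001198g0110 the digits before the letter g name the scaffold, a continuous piece of the assembled genome, and those after it number the gene along that scaffold.

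The libraries were made with a QuantSeq kit, which reads close to the polyadenylated end of a transcript, so that counts do not scale with transcript length. Between 12887911 and 24343174 counts fell on NiTAB identifiers per library, and 3 counts, taken as the smallest number detected, amounted to 0.123 CPM in the deepest library and 0.233 CPM in the shallowest, limits that allow for counting error alone. In RNA of whole leaves, more cells that express a gene and more RNA of it per cell cannot be told apart. The wild type libraries also stood apart from the line libraries in the composition of their spike-ins. Synthetic spike-in RNAs had been added, and their first principal component (a single axis through the main differences in spike-in composition, holding 28.6% of the variance) lay between 1.37 and 1.75 in the wild type and between -1.97 and 1.11 in the lines. The spike-in SIRV4 took a share of all spike-in counts between 5.19% and 5.38% in wild type libraries and between 6.34% and 7.77% in line libraries. Reads outside genes made up 35.6% to 38.1% of all reads listed in the wild type and 33.4% to 36.4% in the lines, and these ranges overlapped.

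At the level of the whole set, the members took 0.0240% to 0.0403% of the gene counts in the wild type libraries. In the L14 libraries their share was 0.211% to 0.273%, in those of L15 0.237% to 0.273%, and in those of L16 0.236% to 0.303%. Most of them were thus rare transcripts in wild type leaves and moderately abundant ones in the lines. The median member stood at 2.23 CPM in the wild type (range of means from 0.608 to 51.4), at 25.3 CPM in L14, at 26.0 CPM in L15, and at 23.8 CPM in L16. The wild type mean was under 1 CPM for 9 members and at least 10 CPM for 8 members. In the lines, 8 members had a mean of at least 100 CPM and 11 had one under 10 CPM. No member was without counts in any library, and the lowest counts were 3 in a wild type library and 46 in a line library. In 11 members at least 1 wild type library held fewer than 10 counts, so that their ratios rest on small wild type numbers.

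**Figure D1:**
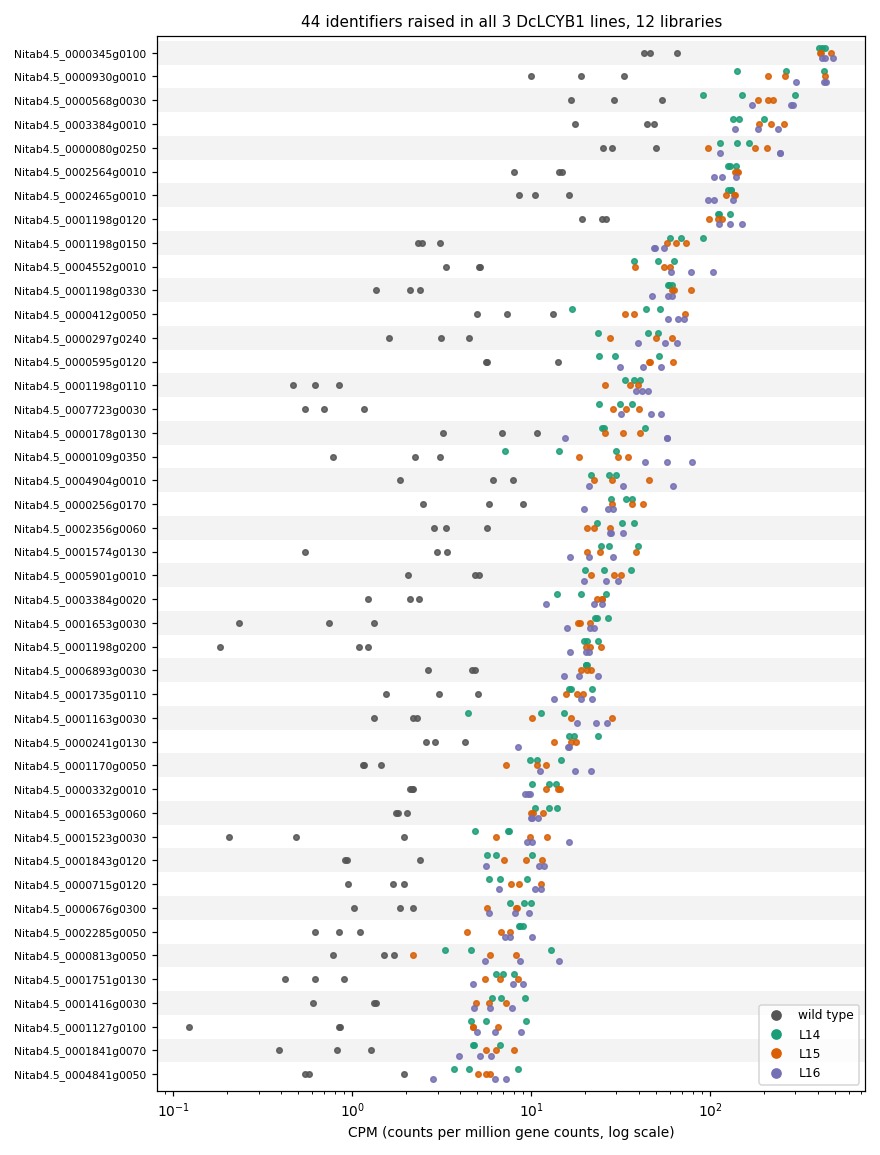
Level of each of the 44 members (rows, highest mean of the lines at the top) in CPM on a log axis, with 1 point per library in grey for the 3 wild type libraries and in colour for the 9 libraries of L14, L15, and L16. The grey points lie left of all coloured points in every row, which the choice of members required, and the 3 colours are mixed in most rows.

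The median ratio of the line mean to the wild type mean was 6.74 for L14, 7.05 for L15, and 7.56 for L16. Taking for each member the line with the lowest ratio, the median was 6.01, with 14 members under 5, 11 at 10 or more, and 5 at 20 or more. All 44 members passed the filter on low counts and were among the 18823 identifiers tested. In edgeR's quasi-likelihood test (Benjamini-Hochberg adjusted p under 0.05) all 44 were called higher in each line, a contrast that had already served to choose them. Of all identifiers tested, 6.61% were called higher in L14, 8.5% in L15, 14.6% in L16, and 4.92% in all 3 lines, and nothing is read from the members' count against these shares. For L14, L15, and L16 the members had a median log2 fold change of 2.58, 2.68, and 2.89, while that of all identifiers tested was 0.017, 0.012, and 0.0045. All 3 comparisons rest on 1 group of 3 wild type libraries, so they are not independent of each other.

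The absence of overlap was also part of the rule. Among the 8839 identifiers with the same CPM minimums, 14.0% had all 9 line libraries above all 3 wild type libraries. The ratio of the lowest line library to the highest wild type library ranged over the members from 1.28 to 30.7. It was under 1.5 for 4 members and at least 4 for 19. Identifiers that met the CPM minimums and the ratios numbered 46, and the pair left out for overlap was Nitab4.5_0000250g0010 and Nitab4.5_0000446g0090, named after their values were seen.

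With the spike-in component added to the model, 36 members were called higher in all 3 lines, against 1.4% of all identifiers tested. With the SIRV4 and SIRV7 counts, as a joint share of all spike-in counts, in its place, which was chosen after the data had been examined, 32 members were called, against 0.914% of all identifiers tested. The same contrast had served to choose the members, so nothing is read from either count against these shares. The estimates of all 44 members stayed above 0 in each line in both models, and their median log2 fold changes were 2.59, 2.71, and 2.98 with the component and 2.61, 2.64, and 2.99 with the share (L14, L15, and L16). Single members moved far more than these medians, and in both directions. Nitab4.5_0001163g0030, picked here after its values were seen, had a log2 fold change in L14 of 2.23 in the genotype model. It was 2.62 with the component and 2.79 with the share. Nitab4.5_0000178g0130, named after its values were seen, had a log2 fold change in L14 of 2.08 in the genotype model, of 0.89 with the component (edgeR adjusted p = 0.234), and of 0.56 with the share (edgeR adjusted p = 0.559). Wild type and line libraries did not overlap in either spike-in measure, so that their difference and that of the genotypes cannot be fully told apart.

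The 3 members with the highest levels in the lines held 37.8% of the summed CPM of all members there. Nitab4.5_0000345g0100 stood at 65.3, 46.0, and 43.0 CPM in the wild type libraries, at 407, 422, and 440.3 CPM in L14, at 413, 419.8, and 475 CPM in L15, and at 422, 487, and 437 CPM in L16. It was both abundant and even, since the 9 line libraries lay within a ratio of 1.20 between highest and lowest. Its log2 fold change against the wild type was 2.92 ± 0.16 (SE) in L14, 3.01 ± 0.16 in L15, and 3.07 ± 0.16 in L16.

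Nitab4.5_0000930g0010 had wild type levels of 33.1, 19.1, and 9.98 CPM. Its levels were 431, 141, and 265 CPM in L14, 439, 211, and 263 CPM in L15, and 434, 444, and 303 CPM in L16. This member thus differed 3.14-fold among line libraries and about as much among wild type libraries. Nitab4.5_0000568g0030 stood at 53.9, 29.1, and 16.8 CPM in the wild type, at 298, 90.9, and 152 CPM in L14, at 210.2, 186, and 225 CPM in L15, and at 283, 292, and 171 CPM in L16. In both of these members replicate 2 was the lowest library of L14 and of L15, and replicate 3 was the lowest of L16 and of the wild type. The log2 fold change of Nitab4.5_0000568g0030 in L14 was 2.32 in the genotype model and 1.58 once the spike-in component was in the model, where it was no longer called (edgeR adjusted p = 0.0730).

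The 4 members with the largest ratio, taken in the line where it was lowest, had means under 2 CPM in wild type leaves. Nitab4.5_0001198g0110 had 0.466, 0.847, and 0.616 CPM in the wild type, which is 35 counts over the 3 libraries. It had 40.6, 33.3, and 37.8 CPM in L14, 35.5, 26.0, and 39.6 CPM in L15, and 38.7, 45.2, and 41.7 CPM in L16. Each line mean was thus at least 52.4 times the wild type mean, the highest such value in the set. Nitab4.5_0007723g0030 followed with 1.16, 0.545, and 0.698 CPM in the wild type, 31.5, 23.9, and 36.7 CPM in L14, 28.6, 33.9, and 40.2 CPM in L15, and 31.8, 53.4, and 46.8 CPM in L16. Its lowest ratio to the wild type was 38.3, in L14. Its log2 fold change was 5.16 ± 0.30 (SE) in L14, 5.36 ± 0.30 in L15, and 5.73 ± 0.30 in L16.

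Nitab4.5_0001653g0030 had 0.233, 1.33, and 0.739 CPM in the wild type. It had 22.7, 26.8, and 23.4 CPM in L14, 21.4, 18.7, and 18.3 CPM in L15, and 21.3, 22.4, and 15.98 CPM in L16. The wild type libraries of this member were farther apart in ratio than its line libraries, which lay within 1.68-fold, and its lowest ratio was 25.4. Those wild type levels rest on 3, 22, and 18 counts, so the ratio among them is imprecise. The other member of these 4, Nitab4.5_0001198g0330, lay on the same scaffold as Nitab4.5_0001198g0110 and is described with that scaffold.

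The members were spread over 38 scaffolds, of which 35 held 1 member each. Scaffold 1198 held 5 members, numbered 110, 120, 150, 200, and 330 along it, among 37 identifiers listed and 20 tested. No other scaffold held more than 2. Nitab4.5_0001198g0120 was already expressed in wild type leaves, with 26.3, 24.9, and 19.3 CPM, and stood at 112, 111, and 129 CPM in L14, at 98.2, 111, and 117 CPM in L15, and at 112, 129, and 152 CPM in L16. Nitab4.5_0001198g0150 had 2.33, 3.09, and 2.46 CPM in the wild type, 91.4, 69.2, and 60.1 CPM in L14, 73.4, 64.3, and 57.6 CPM in L15, and 49.4, 55.3, and 48.6 CPM in L16. Among these neighbours it was the one whose L16 libraries all lay below those of L14 and L15.

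Nitab4.5_0001198g0200 had 1.09, 0.182, and 1.23 CPM in the wild type. It had 20.6, 19.8, and 23.7 CPM in L14, 20.4, 21.3, and 24.6 CPM in L15, and 16.4, 20.2, and 21.2 CPM in L16. Nitab4.5_0001198g0330 had 2.41, 2.12, and 1.36 CPM in the wild type, 59.2, 58.0, and 61.3 CPM in L14, 61.0, 63.3, and 78.1 CPM in L15, and 47.2, 61.0, and 58.3 CPM in L16. The 5 members of this scaffold thus differed widely in ratio, from 4.62 for Nitab4.5_0001198g0120 to 52.4 for Nitab4.5_0001198g0110 in the line with the lowest ratio. None of them varied more than 1.88-fold among the 9 line libraries, which was not particular to this scaffold, since 20 members in all stayed under 2-fold.

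The other identifiers of scaffold 1198 were not members, but an identifier could pass the filter on low counts through its line libraries alone. Of the 15 tested, 12 had estimates above 0 in all 3 lines and 3 had estimates below 0 in all 3. By edgeR's quasi-likelihood test (Benjamini-Hochberg adjusted p under 0.05) 7 of the 15 were called higher in all 3 lines, where 4.92% of all identifiers tested were. Among these 7, Nitab4.5_0001198g0210 and Nitab4.5_0001198g0220, named after their values were seen, had 7 and 1 counts over the wild type libraries together. They were thus tested only because of their counts in the lines. Together with the members, 12 of 20 tested identifiers (60%) were called higher in all 3 lines. This was the largest number for any scaffold, the next being 7 of 56, and the largest share among the 602 scaffolds with at least 10 tested identifiers, the next being 40%. Since the members and the scaffold were both picked on these libraries, these counts describe where the calls lay and carry no test of their own.

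These neighbours differed in level and in the size of their change. Nitab4.5_0001198g0230, which was chosen after its values were seen, had a mean of 56.7 CPM in the wild type and of 89.2, 90.4, and 86.4 CPM in L14, L15, and L16, with log2 fold changes of 0.53 ± 0.14 (SE), 0.60 ± 0.14, and 0.55 ± 0.14. Nitab4.5_0001198g0220, also chosen after its values were seen, had 1 count over the 3 wild type libraries together and between 106 and 251 counts in each line library, and was not a member because its wild type mean was under 0.5 CPM. Against this direction, Nitab4.5_0001198g0320, again chosen after its values were seen, had a mean of 3.12 CPM in the wild type and of 1.48, 1.27, and 0.934 CPM in L14, L15, and L16. It was called lower in L15 (edgeR adjusted p = 0.0450) and in L16 (edgeR adjusted p = 0.00815) but not in L14 (edgeR adjusted p = 0.0717). The identifiers that were called thus stood among others on the same scaffold that were not, and 4 of the 15 were called in no line.

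**Figure D2:**
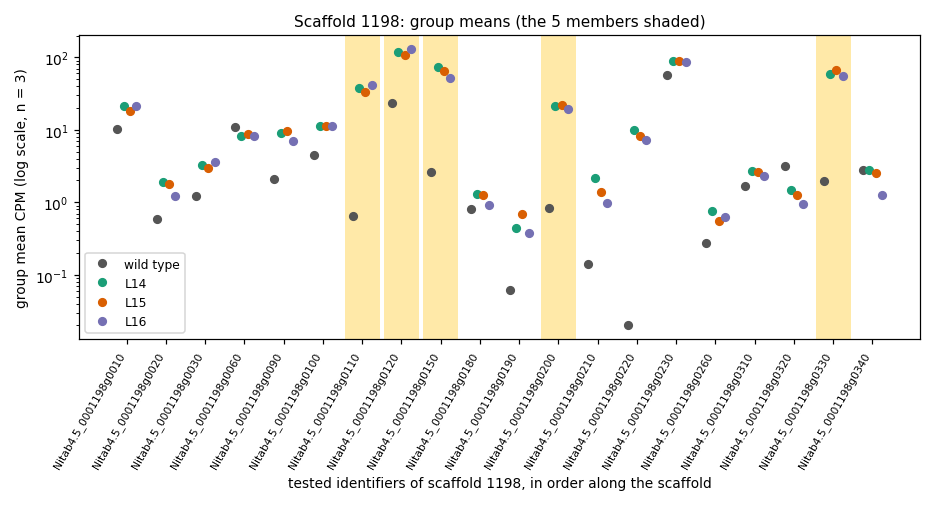
Mean level of each of the 20 tested identifiers of scaffold 1198, in their order along the scaffold, in CPM on a log axis, with 1 point per genotype (n = 3 libraries) and the 5 members shaded. The grey wild type points lie below the coloured points of the lines for most identifiers, by more than 10-fold for Nitab4.5_0001198g0110 and by less than 2-fold for Nitab4.5_0001198g0230.

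Scaffolds 1653 and 3384 held 2 members each. On scaffold 1653, 1 of the 7 other tested identifiers was called higher in all 3 lines, and 4 were called in none. On scaffold 3384 the members were the adjacent Nitab4.5_0003384g0010 and Nitab4.5_0003384g0020, named here after their values were seen. The next identifier, Nitab4.5_0003384g0030, named in the same way, had a mean of 8.56 CPM in the wild type and of 5.77, 5.71, and 5.95 CPM in L14, L15, and L16, and it was called lower in all 3 lines (edgeR adjusted p from 0.0406 to 0.0440). Counting the identifiers next to a member on either side that were not members themselves, 38 of 74 were tested and 5 of these (13.2%) were called higher in all 3 lines. Without scaffold 1198 the number was 3 of 33 (9.09%), beside the 4.92% of all identifiers tested.

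At the lower end of the set, levels were close to what these libraries can resolve in the wild type. Nitab4.5_0001127g0100 stood at 0.854, 0.847, and 0.123 CPM in the wild type, the last of which is 3 counts, at 5.60, 9.32, and 4.59 CPM in L14, at 6.54, 4.75, and 4.76 CPM in L15, and at 6.26, 8.80, and 5.00 CPM in L16. Nitab4.5_0001841g0070 stood at 0.388, 1.27, and 0.822 CPM in the wild type, at 4.77, 6.73, and 4.76 CPM in L14, at 8.00, 6.41, and 5.60 CPM in L15, and at 5.96, 5.17, and 3.95 CPM in L16. Nitab4.5_0004841g0050 had the lowest level of all in the lines, with 1.94, 0.545, and 0.575 CPM in the wild type, 8.501, 4.52, and 3.71 CPM in L14, 5.04, 5.93, and 5.60 CPM in L15, and 6.31, 7.26, and 2.85 CPM in L16. For the last of these, replicate 1 of the wild type came within a factor of 1.47 of the lowest line library, and once the spike-in component was in the model it was no longer called in L14 (edgeR adjusted p = 0.127) or in L15 (edgeR adjusted p = 0.0538).

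Just inside the ratio minimum of 4 stood Nitab4.5_0000080g0250, with a lowest ratio of 4.05. It had 50.05, 25.1, and 28.3 CPM in the wild type, 165, 141, and 113 CPM in L14, 177, 208, and 97.1 CPM in L15, and 247, 246, and 113 CPM in L16. Its log2 fold change in L14 was 1.89 in the genotype model, 1.054 with the spike-in component (edgeR adjusted p = 0.0486), and 0.83 with the share of SIRV4 and SIRV7 (edgeR adjusted p = 0.207). This member thus had a smaller estimate in both models that hold a spike-in measure. Next came Nitab4.5_0000813g0050 with a lowest ratio of 4.10. It had 1.71, 1.51, and 0.781 CPM in the wild type, 13.0, 3.29, and 4.63 CPM in L14, 5.92, 2.18, and 8.29 CPM in L15, and 8.70, 14.4, and 5.52 CPM in L16. The gap between the genotypes was narrow in this member, whose lowest line library was 1.28 times the highest wild type library. It was no longer called in L14 without replicate 1 of L14 (edgeR adjusted p = 0.0822) nor in L15 without replicate 1 or 3 of L15 or replicate 2 or 3 of the wild type (edgeR adjusted p from 0.0586 to 0.0857), and once the spike-in component was in the model it was called in neither of these lines (edgeR adjusted p = 0.327 in L14 and 0.262 in L15).

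Just outside the minimum stood Nitab4.5_0000458g0080, whose lowest ratio was 3.998. It had 2.25, 1.15, and 2.46 CPM in the wild type, 10.6, 6.62, and 6.18 CPM in L14, 7.42, 8.69, and 7.67 CPM in L15, and 9.71, 10.1, and 12.3 CPM in L16. Nitab4.5_0000743g0030 had a lowest ratio of 3.95, with 6.29, 7.68, and 6.29 CPM in the wild type, 33.5, 28.4, and 23.3 CPM in L14, 31.2, 28.4, and 20.4 CPM in L15, and 29.1, 33.8, and 23.5 CPM in L16. The limit at 4 thus cut through a continuous range of ratios, and a ratio of at least 3 would have taken in 75 identifiers.

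The lines were also compared with each other. The rule set no order among them, but it asked for a high level in every line and every line library, and so left out beforehand any identifier that was high in 1 line and low in another. Calls between lines are therefore given beside those of the other identifiers as a description. In edgeR's quasi-likelihood test (Benjamini-Hochberg adjusted p under 0.05) 1 of the 44 members was called between L16 and L14, where 1.73% of all identifiers tested were. At an unadjusted p under 0.05 there were 8 members (18.2%), beside 19.5% of the 8795 other identifiers with the same CPM minimums and 14.8% of all tested. DESeq2 called 2 members between these lines, and 4.9% of the identifiers it tested. Between L16 and L15 none of the members was called by edgeR (smallest edgeR adjusted p = 0.170), where 0.712% of all identifiers tested were, and none by DESeq2, which called 2.25%. At an unadjusted p under 0.05 in edgeR there were 5 members (11.4%), beside 13.3% of the others with the same CPM minimums and 10.6% of all tested. Between L15 and L14 none was called by edgeR, where 0.0159% of all tested were, and none by DESeq2, which called 0.0665%. At an unadjusted p under 0.05 in edgeR there was 1 member (2.27%), beside 3.54% of the others and 3.69% of all tested. For a difference of any kind among the 3 lines, none of the members was called by edgeR (smallest edgeR adjusted p = 0.0654), where 1.23% of all identifiers tested were, and 2 were called by DESeq2, which called 5.78%. At an unadjusted p under 0.05 in edgeR there were 6 members (13.6%), beside 15.33% of the others and 11.9% of all tested.

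The choice of members fixed that each line lay well above the wild type and thereby limited how far the lines could differ. The log2 fold change was under 1.5-fold in size for 38 of 44 members between L16 and L14, for 40 between L16 and L15, and for 41 between L15 and L14, with a median SE of about 0.27 in each. The median log2 fold change was 0.09 for L16 against L14, 0.06 for L16 against L15, and 0.09 for L15 against L14. The absence of a call does not limit a difference to 2 SE, because calls use adjusted p. Nitab4.5_0004552g0010, described below, was not called by edgeR at 0.75 ± 0.22 (SE) for L16 against L14. All libraries of L16 lay above all of L14 in 4 members and below in 3, so that 15.9% of the members were separated, beside 23.0% of the other identifiers with the same CPM minimums. The means rose in the order L14, L15, L16 in 15 members (34.1%), beside 19.7% of the other identifiers, and L16 had the highest mean in 21 members, L14 in 12, and L15 in 11. The difference between these shares was not tested.

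The member called between L16 and L14 was Nitab4.5_0000109g0350. It stood at 2.25, 0.787, and 3.08 CPM in the wild type, at 29.8, 7.11, and 14.25 CPM in L14, at 30.5, 18.4, and 34.8 CPM in L15, and at 79.1, 57.3, and 43.3 CPM in L16. The L16 libraries lay above all libraries of the other lines, while those of L14 and L15 overlapped. Its log2 fold change of L16 against L14 was 1.91 ± 0.42 (SE, edgeR adjusted p = 0.0312). The call was lost without replicate 2 of L14 (edgeR adjusted p = 0.139), replicate 3 of L14 (edgeR adjusted p = 0.127), replicate 1 of L16 (edgeR adjusted p = 0.110), or replicate 2 of L16 (edgeR adjusted p = 0.0836), with log2 fold changes from 1.54 to 1.99 in these fits. Each of these fits also had fewer libraries in that line, so a lost call alone does not show that the estimate rested on the library left out. The estimate was 1.54 without replicate 2 of L14 and 1.99 without replicate 2 of L16. Against the wild type, its estimate in L14 was 2.82 in the genotype model and 2.13 with the spike-in component, where it was no longer called (edgeR adjusted p = 0.0866).

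Other members came near to a call between lines in edgeR's genotype model without reaching it. Nitab4.5_0004552g0010, chosen after its values were seen because DESeq2 called it between L16 and L14, stood at 63.3, 51.2, and 37.8 CPM in L14, at 60.02, 55.3, and 38.2 CPM in L15, and at 103.7, 78.8, and 60.9 CPM in L16, with wild type levels of 3.34, 5.14, and 5.18 CPM. Its log2 fold change of L16 against L14 was 0.75 ± 0.22 (SE, edgeR adjusted p = 0.101). In the opposite direction, Nitab4.5_0001198g0150 of scaffold 1198 had a log2 fold change of L16 against L14 of -0.45 ± 0.14 (SE, edgeR adjusted p = 0.132). Its neighbour Nitab4.5_0001198g0110 had an estimate of 0.24 ± 0.17 for the same comparison (SE, edgeR adjusted p = 0.566), so that neither was called and their signs differed.

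**Figure D3:**
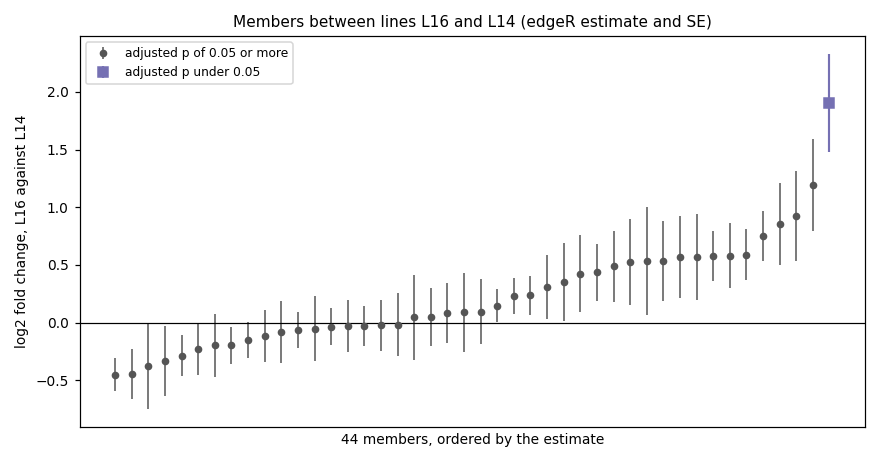
Log2 fold change of L16 against L14 for the 44 members, ordered by the estimate, with bars of 1 SE from edgeR. The estimates run from -0.45 to 1.91, some bars cross 0 while many do not, and the square marks Nitab4.5_0000109g0350, which had an adjusted p under 0.05.

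Libraries of the same line, which came from separate biological replicates, varied widely in some of these members and little in others. The SD of log2 CPM among the 3 libraries of a line, pooled over the lines, had a median of 0.320 over the members (range from 0.106 to 0.866) and of 0.199 over the other identifiers with the same CPM minimums. Of the members, 18 (40.9%) lay above 0.369, the value that 10% of those other identifiers exceeded. At line means between 10 and 100 CPM the medians were 0.319 for 25 members and 0.189 for 5449 others, and at 100 CPM or more they were 0.297 for 8 members and 0.165 for 1403 others. The gap was smaller at 5 to 10 CPM, with 0.325 for 11 members and 0.263 for 1943 others. These libraries had served in the choice of members, so that the difference is a description and was not tested. Between the highest and the lowest of the 9 line libraries, the ratio was under 1.5 for 5 members, under 2 for 20, and over 4 for 4.

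**Figure D4:**
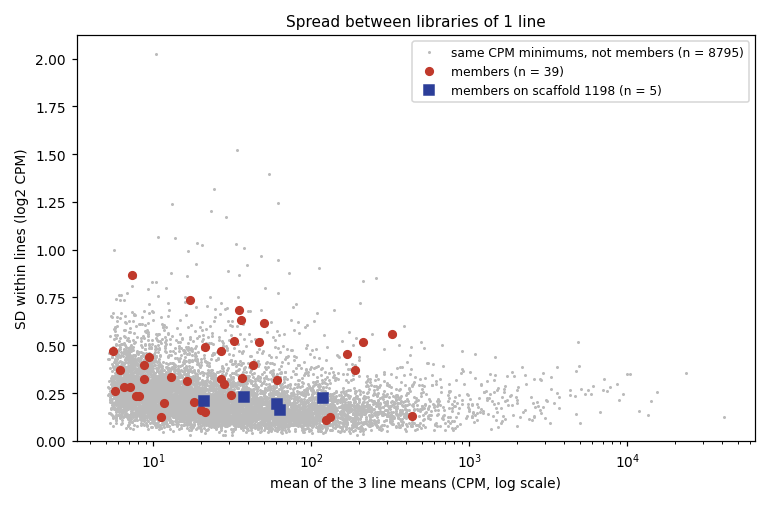
SD of log2 CPM among the libraries of a line (vertical axis, pooled over the 3 lines) against the mean of the 3 line means in CPM (horizontal log axis), with grey dots for the 8795 other identifiers with the same CPM minimums, red circles for 39 members, and blue squares for the 5 members on scaffold 1198. Many red circles lie high in the grey cloud, with the highest at 0.866, while the blue squares all lie between 0.164 and 0.230, around the median of 0.199 of the grey dots.

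The most even member among line libraries was Nitab4.5_0002465g0010, with an SD of 0.106 on the log2 scale. It had 16.4, 10.53, and 8.59 CPM in the wild type, 127, 130.4, and 131 CPM in L14, 122.7, 138, and 136 CPM in L15, and 105, 134, and 97.2 CPM in L16. Close to it in level and evenness was Nitab4.5_0002564g0010, named after its values were seen, with means of 12.4 CPM in the wild type and 132, 141, and 121 CPM in L14, L15, and L16. Whether this pair are copies of 1 gene, whose reads the mapping could divide between them, was not analysed here. The member with the next lowest spread was Nitab4.5_0001653g0060, at an SD of 0.122. It had 2.02, 1.82, and 1.77 CPM in the wild type, 14.0, 10.6, and 12.7 CPM in L14, 10.02, 11.6, and 10.3 CPM in L15, and 10.1, 10.9, and 9.996 CPM in L16.

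The least even members were Nitab4.5_0000813g0050, with an SD of 0.866, and Nitab4.5_0001163g0030, with an SD of 0.735. The latter had 1.32, 2.18, and 2.30 CPM in the wild type, 11.3, 4.42, and 15.22 CPM in L14, 16.7, 10.2, and 28.4 CPM in L15, and 26.6, 18.0, and 23.0 CPM in L16. Its lowest line library was replicate 2 of L14, and in each line replicate 2 was the lowest of its 3 libraries. In the 12 most variable members, replicate 2 was the lowest library of L14 in 8. Over all 44 members it was the lowest of L14 in 19 (43.2%), beside 32.8% of the other identifiers with the same CPM minimums. Replicate 3 was the lowest library of L16 in 29 members (65.9%), beside 51.1% of those others. This last library also had the highest value of any line library on the spike-in component, at 1.11. Why these libraries were so often the lowest was not tested, and the relation of the members to the component over all libraries is given below.

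**Figure D5:**
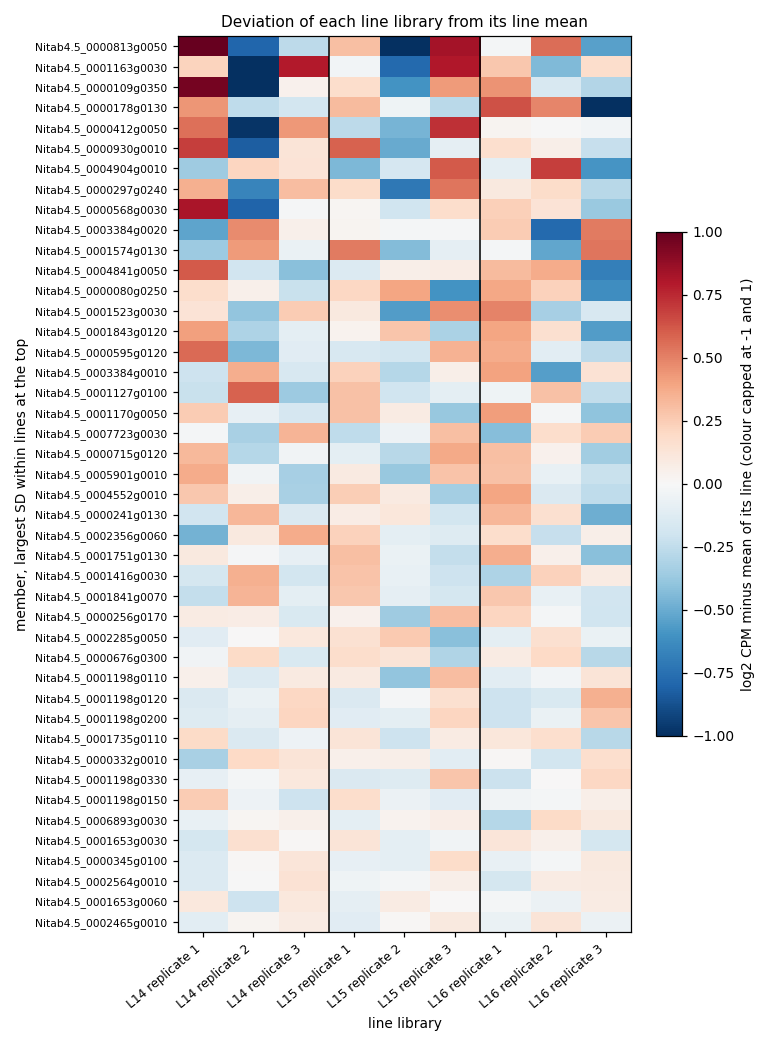
Deviation of each of the 9 line libraries from the mean of its line in log2 CPM, as colour from blue (below the mean) to red (above it) and capped at -1 and 1, for the 44 members ordered by their SD within lines. The strongest colours stand in the upper rows, where replicate 2 of L14 and of L15 and replicate 3 of L16 are often blue, and the rows of scaffold 1198 are pale.

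With genotype in the model, the relation of each member to the spike-in component rests on differences within genotypes, which entered the rule only through the condition of no overlap. In edgeR's quasi-likelihood test 3 members (6.82%) followed the component (Benjamini-Hochberg adjusted p under 0.05), where 2.45% of all identifiers tested did. Of the other identifiers with the same CPM minimums, 4.37% did. At an unadjusted p under 0.05 there were 10 members (22.7%), beside 26.7% of the other identifiers with the same CPM minimums. The 3 were Nitab4.5_0000080g0250, Nitab4.5_0000178g0130, and Nitab4.5_0001170g0050, named after their values were seen, and all 3 were lower where the component was higher, with log2 slopes of -0.37, -0.51, and -0.28 per unit. The count was 0 or 1 without any single library of L14 or L15 and without replicate 1 or 3 of L16. The wild type lay at the upper end of the component, so that in these 3 members the within-genotype relation had the same direction as the difference between wild type and lines. This did not hold for all members. Over the 44 members the median slope was -0.035, and 18 slopes (40.9%) were above 0, beside 57.9% for the other identifiers with the same CPM minimums. The difference between these shares was not tested.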

How the data were processed

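Leaf RNA was measured in 12 libraries, 3 per genotype. STAR alignment to the NiTAB 4.5 genome was run for the authors, who deposited unnormalized counts for each gene in each library. The sources used here give neither the version of STAR, nor the counting program, nor whether strand was used. Reads that aligned to several places were listed apart (from 6114358 to 12413748 per library), so near-identical copies can lose counts. The 35519 NiTAB identifiers stood in each library beside 99 spike-in sequences and 5 summary lines, both of which were left out of library sizes and gene tests.

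CPM was the count divided by the library's sum over NiTAB identifiers, times 1000000. Tests used edgeR 4.0.16 in R 4.3.3 (TMM scaling, filterByExpr with a minimum of 10 counts, quasi-likelihood test, genotype as the only factor, all 12 libraries in one model), with Benjamini-Hochberg adjustment over 18823 identifiers at 0.05. SE was obtained from the log2 fold change and the square root of its F statistic. The spike-in component was the first principal component of log2 CPM (TMM, prior count 2) of 62 spike-ins with a mean of at least 10 counts. The edgeR scripts were tested on simulated data. DESeq2 1.42.0, other scalings, filters and thresholds, the replicate block, spike-in covariates, and leaving out each library were tried as alternatives.

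Groups and replicate numbers came from the sample labels. Each pair of replicates was farther apart than counting noise allows. P-values set a difference between genotypes against the spread among the 3 replicates of each genotype, and they do not measure that spread. The members, lists, and tests were chosen with earlier results of these data known. Identifiers named are the 3 members highest and the 3 lowest in level, the 4 of largest ratio and the 2 of smallest ratio, the members called between lines (up to 3 in each direction), the 2 most and the 2 least even, the 2 just outside the ratio minimum, and all members on scaffold 1198. Others are said to be chosen after their values were seen. Planned gene lists were not used, because none of the identifiers matched the RefSeq table. They held carotenoid, heat shock, redox, light harvesting, pathogenesis-related, transcription factor, cell wall, and cell type marker genes.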

Additional observations from a re-analysis of the deposited data

Results flagged for a closer look

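The log2 fold change of Nitab4.5_0000109g0350 against the wild type differed between lines. It was 4.72 in L16 and 2.82 in L14, and the difference between these lines, which was itself tested in the same model, was 1.91 ± 0.42 (SE, edgeR adjusted p = 0.0312, higher in 3 of 3 libraries of L16). Over the alternatives that left out a single library, the adjusted p of this difference rose to at most 0.139.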

How the results depend on the processing

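Among the alternatives run, each of the 44 members was called higher in all 3 lines with other scalings, filters, DESeq2, and the replicate block, and this number was 35 with a minimum log2 fold change of 1, 36 with the spike-in component, 32 with either of the other spike-in models, and 43 or 44 with single libraries left out. A ratio of at least 3 in the rule would have given 75 members, and with single libraries left out the rule gave between 39 and 62, the latter without replicate 1 of the wild type and including 40 of the 44. With TMM-scaled CPM the rule gave 39, all of them among the 44.

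The number of members called between L16 and L14 was 1. It was 2 with DESeq2, 5 with no filter on low counts, 0 with a minimum log2 fold change of 1, 3 once the spike-in component was in the model, 2 with the share of SIRV4 and SIRV7, 2 with a component of spike-ins of at least 100 counts, and from 0 to 1 with single libraries left out. Between L16 and L15 it was 0, and it was 2 with no filter and 1 with the spike-in component. For any difference among the lines it was 0, and it was 2 with DESeq2, 4 with no filter, 1 with only the groups compared in the model, 3 with the spike-in component, and from 0 to 1 with single libraries left out (1 without replicate 1 of L14 or replicate 2 or 3 of the wild type). The number that followed the spike-in component was 3, and it was 1 with spike-ins of at least 100 counts and from 0 to 4 with single libraries left out. The models with the SIRV share or with spike-ins of at least 100 counts were chosen after the data had been examined. The cause of these changes was not tested.

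Equal replicate numbers were not taken to pair the libraries, because the correlation of deviations of same-numbered libraries was not over 0.1 in every pair. It ranged from -0.050 to 0.239, was over 0.1 for replicates 1 and 3 in each pair of lines, and 9 of 12 libraries correlated best with their own number, which is a hint from the data and not from the design. With the replicate block, 2 members were called between L16 and L14, 2 among the lines, and 0 followed the spike-in component.

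Of 1024 refits of 64 fold changes of named identifiers, 1009 kept their direction and their side of the threshold, 15 lost significance (6 of them once the spike-in component was in the model), and 0 changed sign. Most of these fold changes were of members against the wild type, the contrast that chose them, so this outcome was largely fixed beforehand. The refits were those with DESeq2, another scaling, the replicate block, the spike-in component, and single libraries left out. The other spike-in models and the minimum log2 fold change were not among them. With 3 libraries per genotype and wild type levels that were often a few counts, ratios of the rarest members are imprecise.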
